A study of Homo sapiens with 4 samples.

Results

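The cytosolic chaperonin TRiC/CCT was followed through the genes of its 8 subunits, TCP1, CCT2, CCT3, CCT4, CCT5, CCT6A, CCT7 and CCT8, which were found on the arrays by gene name and were 8 of 14267 names there, with 1 probe each. RNA came from K562, an established human leukaemia line with erythroid features, after 4 h with the compound AC-1041, and from K562 control cells of the same time, which the labels call untreated and the methods describe as given the solvent DMSO. The labels give no concentration. Each of 4 Agilent arrays took a mixture of treated and control RNA in separate colours, with the treated RNA in the dye Cy5 on arrays 1 and 2 and in Cy3 on arrays 3 and 4. The methods describe quadruplicate samples, but the sources used here do not say which sample lies on which array. In a fit with a term for the dye, each p-value measures the spread between arrays of like orientation, which may be technical. A difference between the orientations goes into the dye term and not into the error. The data concern 1 cell line at 1 time.

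All 4 arrays lay on 1 slide and shared 1 scan date. The SD of the negative control spots followed the dye orientation, at 226 to 308 intensity units on arrays 1 and 2 and 19.9 to 32.1 on arrays 3 and 4. Dye orientation and this noise therefore cannot be told apart. The share of spots marked for unevenness or as outliers set array 1 apart, with 8.08% against 1.57% to 2.33% on the others. The 6 erythroid markers read for K562, GATA1, KLF1, TAL1, LMO2, EPOR and TFRC, were well above background in the control RNA on 3 or 4 arrays. Of 7 markers of other cell types, MS4A1, PAX5, COL1A1 and COL1A2 were above background on 0 arrays, CD3E on 2, CD3D on 3 and EPCAM on 4. Calls came from limma with a dye term, with Benjamini-Hochberg adjusted p below 0.05. On that basis 4 of the 6 erythroid markers were lower after AC-1041 and 1 was higher. Of the 3 testable markers of other cells, 2 were lower. Among all 8852 probes tested, 13.0% were lower and 24.3% higher. The part of these markers in the subunits' ratios was not tested.

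TRiC/CCT is a barrel of stacked rings, and each ring is built of all the subunits, which are related to one another but come from separate genes. It takes up unfolded proteins, closes over them with the energy of ATP and releases them folded, and actin and the tubulins are its best known substrates. Prefoldin hands such chains over to it and phosducin-like proteins act with it, while the heat shock proteins of the Hsp70 and Hsp90 families form another branch of folding in the cytosol.

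The probes are 60 bases long, and what each one reports rests on its sequence. The first 30 bases are given, as the array files write them, for the subunit that passed the test (CCT7), for 2 whose ratio turned over most clearly between the dye orientations in opposite senses (CCT2 and CCT6A), and for the one that gave no signal above background (CCT8).
CCT7: ggggtacatggtatggagtagacatcaaca
CCT2: ctgtggaatctgtttatcggtgcccattat
CCT6A: gaaagaaattttcccatatgaaaaaaggag
CCT8: aggttcatgtttgtaggatgcacttttcaa
On hg18, the build of the files, these probes lie at chr2:73333277-73333336 on the plus strand, chr12:68281448-68281507 on the plus strand, chr7:56098366-56098425 on the plus strand and chr21:29366753-29366812 on the minus strand. The files place the probe of CCT3 at chr1:154547002-154547061 (minus), that of CCT4 at chr2:61949179-61949238 (minus) and that of CCT5 at chr5:10318930-10318989 (plus). For TCP1 they list 28 of its 60 bases, at chr6:160119510-160119537 (minus). The share of G and C was 45.0% in the CCT7 probe, 38.3% in that of CCT2, 35.0% in those of CCT6A and CCT8, and lay between 35.0% and 53.3% over all 8. Exons and untranslated regions were not assigned here.

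Of the 8 subunits, 7 could be tested, and 1 of them, CCT7, passed an adjusted p of 0.05 and was higher after AC-1041 (limma with a dye term, Benjamini-Hochberg adjustment over all 8852 probes). None was lower. Over all probes tested, 24.3% were higher and 13.0% lower by the same rule, so 1 of 7 was below the share of probes called higher. At an unadjusted p under 0.05 there were 2, CCT7 and CCT4, both higher. The median log2 ratio of the 7 was 0.07, against 0.02 over all probes. With median centring it was -0.0541 against 0.0480, so there neither its sign nor its place against all probes held. With Feature Extraction's processed signals it was 0.0063 against -0.0130, smaller but with sign and place kept. Without array 1 it was 0.0210 against 0.0285, so the sign held and the place did not. The 95% intervals of the 7 together ran from -0.22 to 0.47, or from 0.860-fold to 1.39-fold. As these are bulk RNA samples on a ratio scale, fewer expressing cells and less RNA per cell cannot be told apart.

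**Figure D1:**
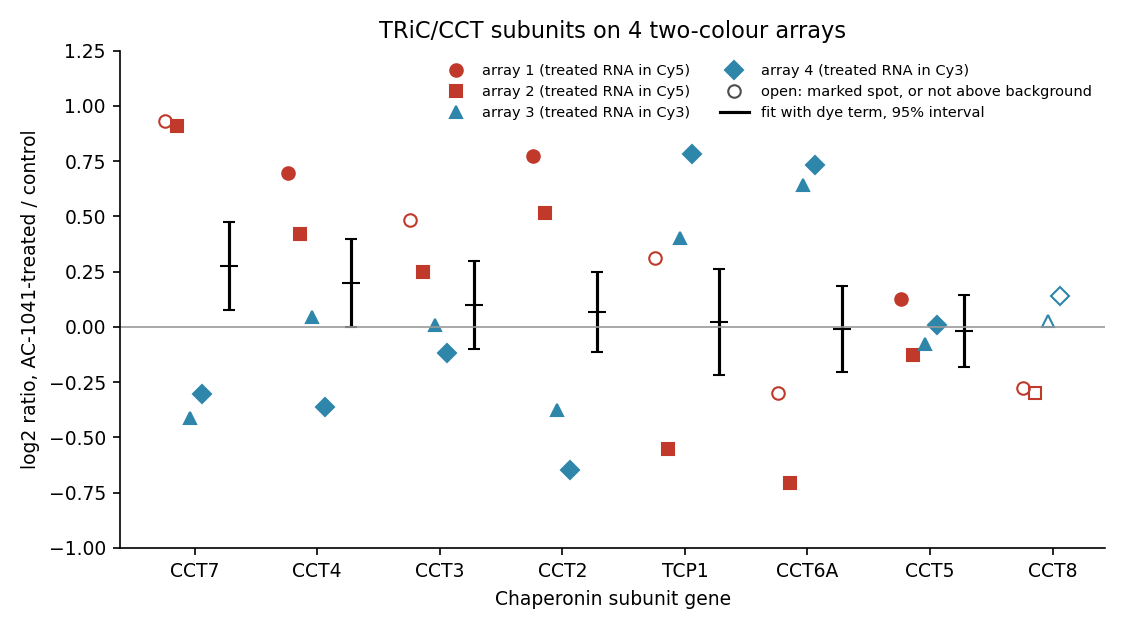
Log2 ratio of treated to control RNA (vertical axis) for each subunit on each of the 4 arrays, red with the treated RNA in Cy5 and blue with it in Cy3. Open symbols are marked spots or, for CCT8, spots not above background, and black bars are the fitted ratio with its 95% interval. The red and blue symbols lie on opposite sides of 0 for CCT7, CCT2 and CCT6A, as do the filled ones of TCP1, whose open symbol is above 0, and the CCT7 interval lies above 0 while that of CCT4 touches it.

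CCT7, the eta subunit, had log2 ratios of 0.93 and 0.91 on arrays 1 and 2 and of -0.41 and -0.31 on arrays 3 and 4. The spot on array 1 was marked and left out of the fit. Arrays 3 and 4 alone then shared an orientation, so the SE rested on their spread and on that borrowed by limma from all probes. Treated RNA gave the brighter normalised signal with Cy5 and the dimmer one with Cy3, so the arrays did not show 1 direction. The fitted log2 ratio was 0.28 ± 0.08 (SE, n = 3 arrays), which is 1.21-fold with a 95% interval of 1.06 to 1.39 and a limma adjusted p of 0.0378. The dye term of CCT7 was 0.63 on the log2 scale (limma adjusted p = 0.000649). The plain mean of the 3 unmarked arrays was 0.06 (SD 0.73), and an exact two-sided sign-flip permutation over these arrays gave p = 1, where 0.25 is the smallest it can give. The call was lost with Feature Extraction's processed signals (adjusted p = 0.0845), with the authors' series values (0.0848), with median centring in place of loess (log2 ratio 0.10, adjusted p = 0.523), without the dye term (0.06, 0.962), with an intensity-dependent prior (0.0611), and without array 3 (0.136) or array 4 (0.234). Without array 2 CCT7 could not be tested, as no unmarked spot with the treated RNA in Cy5 was left.

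CCT4, the delta subunit, had log2 ratios of 0.70, 0.42, 0.04 and -0.36 on arrays 1 to 4. It lay above 0 on 3 of the 4 arrays, and the fitted log2 ratio of 0.20 ± 0.09 (SE, n = 4 arrays) did not pass the threshold (limma adjusted p = 0.106). CCT4 passed it without array 2, at a log2 ratio of 0.27 and an adjusted p of 0.0294. CCT2, the beta subunit, had log2 ratios of 0.78, 0.51, -0.37 and -0.65. With Cy5 on the treated RNA CCT2 was above 0 on both arrays and with Cy3 below 0 on both, and these nearly cancelled, to 0.07 ± 0.08 (SE, n = 4 arrays; limma adjusted p = 0.533).

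TCP1, the alpha subunit that gave the complex its name, and CCT6A, the zeta subunit, ran the other way round. TCP1 had log2 ratios of 0.31 on array 1, where the spot was marked, and of -0.55, 0.40 and 0.78 on arrays 2 to 4. CCT6A had -0.30 on array 1, marked as well, and -0.71, 0.64 and 0.73 on arrays 2 to 4. For both genes array 2 was below 0 and arrays 3 and 4 were above it. The fits gave 0.02 ± 0.10 for TCP1 (SE, n = 3 arrays; limma adjusted p = 0.892) and -0.01 ± 0.08 for CCT6A (SE, n = 3 arrays; limma adjusted p = 0.940).

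CCT3, the gamma subunit, and CCT5, the epsilon subunit, varied least between the orientations. CCT3 had log2 ratios of 0.48 on array 1 (marked), 0.25, 0.01 and -0.12, with a fitted value of 0.10 ± 0.09 (SE, n = 3 arrays; limma adjusted p = 0.411). CCT5 had 0.12, -0.13, -0.08 and 0.01, and all 4 arrays lay near 0, with a fitted value of -0.02 ± 0.07 (SE, n = 4 arrays; limma adjusted p = 0.867). The CCT5 interval ran from -0.18 to 0.15, or from 0.882-fold to 1.11-fold. Its probe was dim, with mean signals of 854 to 1896 intensity units, against 36837 to 253116 for the other tested subunits. The CCT5 probe was well above background on 4 arrays in treated and on 3 in control RNA. How so dim a signal affects the ratio and its interval was not tested.

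CCT8, the theta subunit, gave no usable ratio. Its mean signals were 137 to 247 intensity units in both channels on all 4 arrays, and on 0 of them was either channel well above background. The log2 ratios were -0.27, -0.30, 0.03 and 0.14, and neither a fold nor a test is given for it. The files tie this probe to a cDNA clone record and the probes of the other 7 subunits to reference transcripts.

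In order of the fitted log2 ratio the tested subunits ran CCT7, CCT4, CCT3, CCT2, TCP1, CCT6A, CCT5. No neighbours in this order differed beyond their errors: the gaps were 0.01 to 0.10 and the SE of each gap 0.11 to 0.13. This SE takes the genes as independent, though they share arrays. Neighbours alone were compared, which lie close through the sorting itself, so the gaps do not show whether the subunits differ. The ends of the order, CCT7 (0.28) and CCT5 (-0.02), were not compared. In an exact two-sided sign-flip permutation over arrays, the p-values of the 7 subunits ran from 0.375 to 1. With 4 arrays no p can fall under 0.125, and with the 3 unmarked arrays of TCP1, CCT3, CCT6A and CCT7 none under 0.25. A direction shared by all unmarked arrays was seen for 0 of the 7, against 25.2% of all probes tested.

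The dye term was larger in size than the treatment ratio for 6 of the 7 subunits, CCT5 excepted. It passed an adjusted p under 0.05 in limma for 5 of the 7, CCT2, CCT4, CCT7, TCP1 and CCT6A, against 58.2% of all probes. Its sign was not shared: on the log2 scale it was 0.58 for CCT2, 0.36 for CCT4 and 0.63 for CCT7, and -0.57 for TCP1 and -0.70 for CCT6A. The median size of the dye term was 0.57 over the subunits and 0.24 over all probes. For 6 of the 7 subunits the mean ratio had opposite signs in the orientations, as for 61.7% of all probes. In this fit that is the same event as a dye term larger than the treatment ratio, and not a further result. Across all probes tested, the ratios of arrays 1 and 2 correlated at r = 0.81 and those of arrays 3 and 4 at 0.94, while pairs of arrays of unlike orientation gave -0.29 to -0.12, a description over probes of shared arrays. When arrays 3 and 4 were fitted alone, 4 of the 7 subunits passed the threshold, as did 6173 of 8853 probes. TCP1 (log2 ratio 0.59) and CCT6A (0.69) were higher, and CCT2 (-0.51) and CCT7 (-0.36) lower. Arrays 1 and 2 alone left 3 subunits to test, of which CCT2 (0.64) and CCT4 (0.56) were higher, where 2697 of 8018 probes passed. CCT2 was thus called in opposite directions by the orientations fitted apart.

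**Figure D2:**
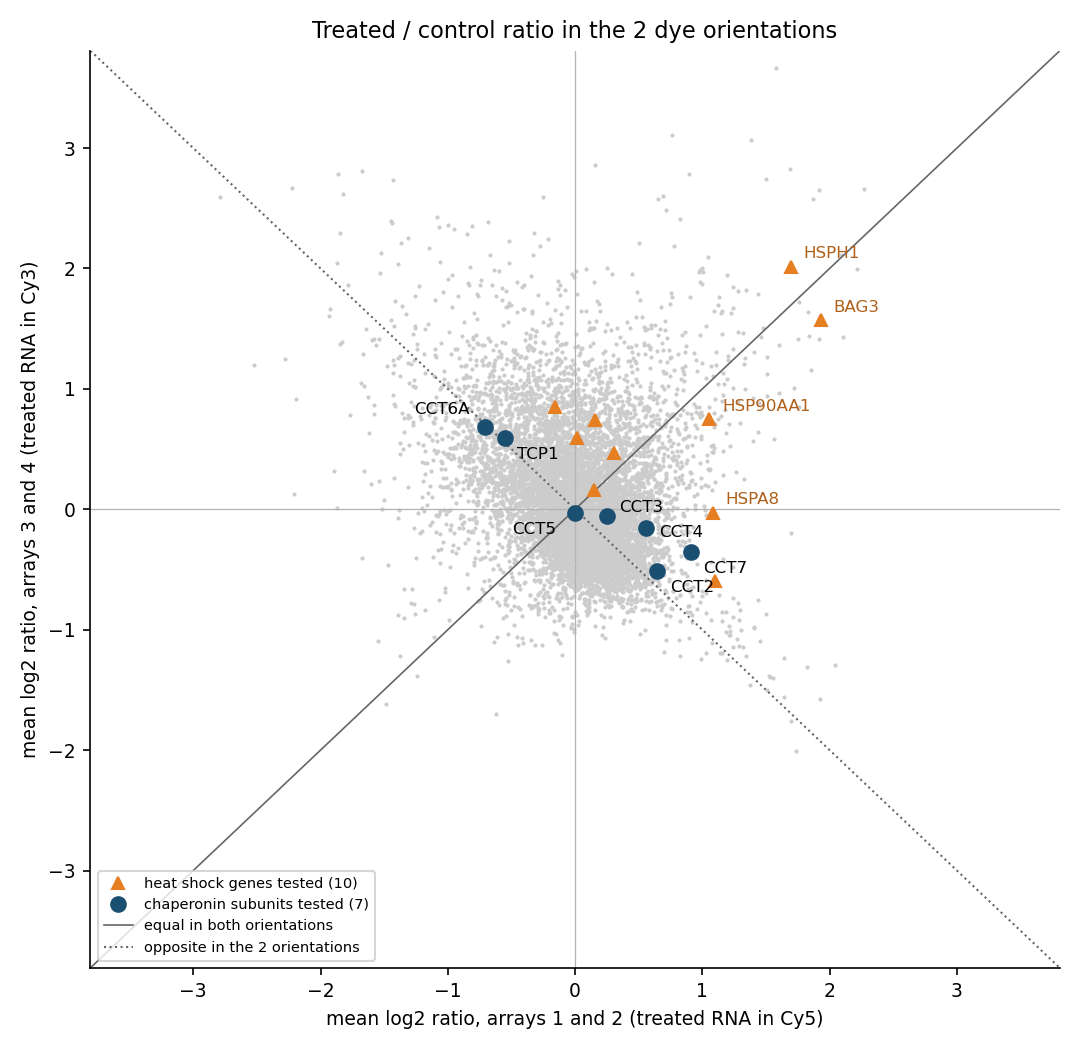
Mean log2 ratio of treated to control RNA on arrays 1 and 2 (horizontal axis) against that on arrays 3 and 4 (vertical axis), over unmarked spots, for the 8852 probes tested (grey), the 7 subunits (blue circles) and 10 heat shock genes (orange triangles). CCT2, TCP1 and CCT6A lie near the dotted line of opposite values, CCT7, CCT4 and CCT3 between it and the horizontal axis, and CCT5 near 0, whereas HSPH1, BAG3 and HSP90AA1 lie near the solid line of equal values, high in both orientations.

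Among the cochaperones that work with the ring, prefoldin genes did not pass the test and the phosducin-like genes went both ways. Of the 6 prefoldin subunits, which deliver unfolded actin and tubulin, 0 passed the threshold in limma, against 37.3% of all probes. For 2 of them, PFDN1 and PFDN6, the 95% interval left out 0. The log2 ratios of the 6 were 0.15 for PFDN2, 0.06 for PFDN5, 0.03 for PFDN4, -0.06 for VBP1, -0.16 for PFDN1 and -0.23 for PFDN6. Their limma adjusted p-values were 0.0655 to 0.819 and their median log2 ratio was -0.02. PFDN6 lay below 0 on all 4 arrays (-0.12, marked, then -0.16, -0.27 and -0.33), and it passed the threshold in 4 of 14 alternatives.

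Of the phosducin-like proteins and the testis form of the zeta subunit, 4 of 5 genes were on the array and 3 passed the threshold, where 37.3% of all probes did in either direction. PDCL, which helps the chaperonin assemble G protein beta subunits, had log2 ratios of 0.02, 0.02, 1.12 and 1.07 on arrays 1 to 4. The ratio was near 0 with the treated RNA in Cy5 and high with it in Cy3, and the fit gave 0.56 ± 0.06 (SE, n = 4 arrays), 1.47-fold, with a limma adjusted p of 0.000334. PDCL3 was lower on every array (-0.27, -0.17, -0.27 and -0.33), with a fitted log2 ratio of -0.26 and a limma adjusted p of 0.0143. CCT6B, which replaces CCT6A in testis, had -0.24, -0.12, 0.73 and 0.72, a fitted log2 ratio of 0.27 and a limma adjusted p of 0.0127, and was well above background in control RNA on 2 arrays. PDCL2 had a fitted value of -0.16 (limma adjusted p = 0.0876). The calls of PDCL3 and CCT6B were lost without array 3 (limma adjusted p = 0.0925 and 0.103) and without array 4 (0.148 and 0.118), and those of PDCL, PDCL3 and CCT6B without the dye term (0.401, 0.353 and 0.673). PDCL3 also lost it with median centring (0.210), and CCT6B with processed signals (0.120) and series values (0.128).

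Of the 5 other chaperonin genes, 2 passed the threshold in limma and were higher, where 24.3% of all probes were called higher. BBS12, a chaperonin-like protein of the complex that assembles the BBSome, had log2 ratios of 0.79, 0.94, 1.37 and 1.58, all above 0, and a fitted ratio of 1.17 ± 0.07 (SE, n = 4 arrays), 2.25-fold, with a limma adjusted p of 1.89e-05. Its partners MKKS (-0.05) and BBS10 (-0.03) did not pass. HSPD1, the mitochondrial Hsp60, had 0.68, 0.90, 0.14 and 0.04, a fitted log2 ratio of 0.44 ± 0.07 (SE, n = 4 arrays) and a limma adjusted p of 0.00167. HSPE1, the lid of Hsp60, had 1.35, 1.94, -1.37 and -1.09, which left 0.21 (limma adjusted p = 0.146), with a dye term of 1.44. HSPE1 passed the threshold without array 1 (limma adjusted p = 0.00101), and HSPD1 lost it without the dye term (0.368), as did BBS12 (0.0621). HSPE1 turned over between the orientations in the sense of CCT7 and CCT2, by more than either.

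Of the heat shock list of 13 genes, 12 were on the array, 10 could be tested and 8 were higher, 0 lower. By the same rule 24.3% of all probes were higher and 13.0% lower. The list had a median log2 ratio of 0.42. HSPH1, an Hsp70 relative that acts as exchange factor, had 1.41, 1.97, 1.82 and 2.21 on arrays 1 to 4 and a fitted ratio of 1.85 ± 0.10 (SE, n = 4 arrays), 3.61-fold. BAG3, an Hsp70 cochaperone, had 1.71, 2.16, 1.35 and 1.79 and a fitted ratio of 1.75 ± 0.10 (SE, n = 4 arrays). Both were high in either dye (limma adjusted p = 1.34e-05 for each). HSP90AA1, the inducible Hsp90, was 0.90 higher on the log2 scale (limma adjusted p = 0.000160), with 0.90, 1.21, 0.56 and 0.94 on the arrays. A further HSP90AA1 probe, fitted at 0.88, read -0.60 (marked), -0.13, 1.94 and 1.85, so it was high in 1 orientation alone. HSPA8, the constitutive Hsp70, was 0.53 higher (limma adjusted p = 0.00117), with 0.98, 1.18, -0.18 and 0.12 on the arrays. It was not called with processed signals (limma adjusted p = 0.0648) or series values (0.0719). HSPA1A and DNAJB1 had 2 marked spots each and were not tested. Without the dye term, HSPH1 and BAG3 were the 2 genes past the threshold among all partner lists, against 20 with it. The medians were 0.42 for the heat shock list, 0.07 for the subunits and -0.02 for prefoldin, and no test was made between the lists.

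**Figure D3:**
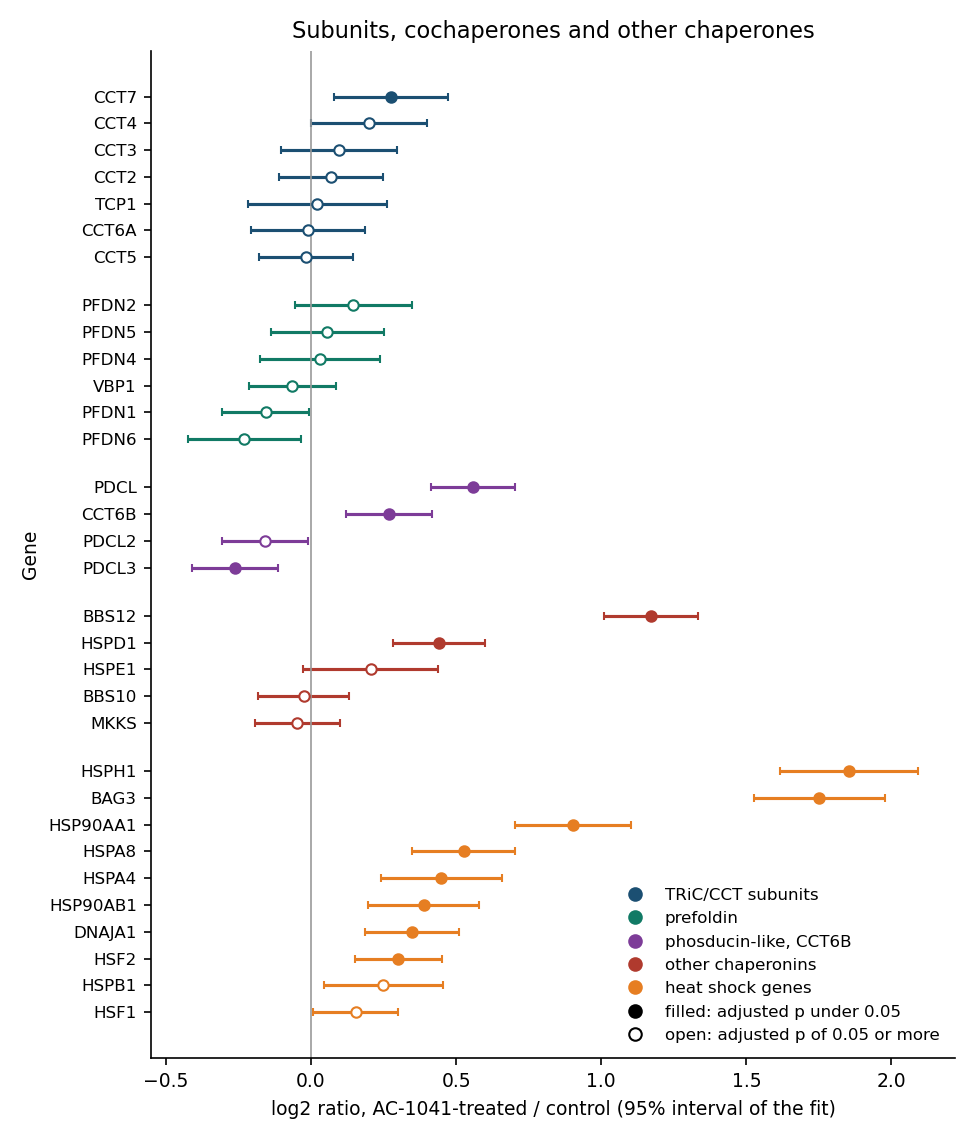
Fitted log2 ratio of treated to control RNA (horizontal axis) with its 95% interval for each tested gene of the chaperonin, prefoldin, phosducin-like and CCT6B, other chaperonin and heat shock lists. Filled symbols have a limma adjusted p under 0.05. The subunit and prefoldin estimates all lie between -0.23 and 0.28, while 8 of the 10 heat shock genes are filled and to the right of 0.

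Of 13 genes of actins and tubulins, which TRiC/CCT folds, 1 was higher and 3 lower, so that 4 of 13 passed against 37.3% of all probes. TUBB2A was higher (log2 ratio 0.33, limma adjusted p = 0.00481), and TUBB4B (-0.37, 0.0257), TUBB4A (-0.33, 0.00902) and TUBB3 (-0.28, 0.0202) were lower, while the list had a median of -0.08. Tubulin genes are close in sequence, and cross-hybridisation between them was not tested. The orientation also marked this list, as in the alpha-tubulin TUBA1B, with 1.05, 1.08, -0.81 and -1.03, and a fitted value of 0.07 (limma adjusted p = 0.450), which is named here after its values were seen. Of 8 other substrates tested, 1 passed, the anaphase-promoting complex activator FZR1 (0.25, limma adjusted p = 0.0340). FZR1 had log2 ratios of 0.59, 0.79, -0.02 and -0.34 on arrays 1 to 4, and was well above background in control RNA on 2 arrays. Of the 6 tubulin folding cofactors, which take tubulin on from the chaperonin, TBCE was higher (0.27, limma adjusted p = 0.0224) and ARL2 lower (-0.31, 0.0300). On arrays 1 to 4 TBCE had -0.11, -0.38, 0.70 and 0.86, and ARL2 had -0.27, 0.14, -0.38 and -0.71. FZR1 and TBCE thus had opposite signs in the orientations. Without array 4 the calls of all 4 tubulins were lost (limma adjusted p = 0.0802 to 0.232), as they were without the dye term (0.303 and above). With processed signals and series values TUBB2A (0.0841 and 0.0850), TUBB4B (0.0615 and 0.0640), FZR1 (0.0723 and 0.0793), TBCE (0.0677 and 0.0685) and ARL2 (0.110 and 0.114) were not called, nor with median centring TUBB4A (0.0917), TBCE (0.0616) and ARL2 (0.0765). Those of FZR1, TBCE and ARL2 were lost without array 3 (0.0616 to 0.273) and without array 4 (0.0742 to 0.264), and FZR1 also fell short without array 2 (0.0695) and ARL2 without array 1 (0.0519).

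As 8 heat shock genes and 1 subunit passed the test, the promoters of both lists, of prefoldin and of the other chaperonins were searched. The search was for the paired unit of the heat shock element, GAANNTTC, a palindrome read alike on both strands. It covered the 250 bases before each RefSeq start site of GRCh38.p14. Of 7 subunits with such a window, 2, TCP1 and CCT2, held it, in 2 of 9 windows, against 5.78% of 35116 windows of all genes. In the heat shock list 8 of 12 genes held it, in 8 of 18 windows. Of the 8 heat shock genes that were higher, 4 held it, and HSPH1 and BAG3 held neither it nor the other phase. Of the prefoldin genes, PFDN6, which lay below 0 on every array, held GAANNTTC, in 2 of 8 windows of that list. Of the other chaperonins HSPD1 held it, in 1 of 7. The other phase of the unit, TTCNNGAA, was in 0 of the 9 subunit windows, in 3 of the 18 heat shock windows and in 6.62% of all. It was in 0 of the 8 prefoldin windows and in 1 of the 7 of the other chaperonins. The phases can overlap. The matches of both subunits are set beside those of HSPD1 and HSP90AA1, which were higher, with the unit in capitals.
TCP1: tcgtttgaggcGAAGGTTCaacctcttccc
CCT2: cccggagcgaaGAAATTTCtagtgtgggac
HSPD1: gcattttctgGAAAGTTCtggaaccgagc
HSP90AA1: gggttcttccgGAAGGTTCgggaggcttct
They lie at chr6:159789815-159789844 (minus), chr12:69585789-69585818 (plus), chr2:197500062-197500090 (minus) and chr14:102087109-102087138 (minus), and the unit begins 231, 89, 240 and 83 bases before the start site of their window. CCT2 and HSPD1 have a pair of start sites each, and in both the match precedes the downstream one. TCP1 and CCT2, with a match, had fitted log2 ratios of 0.02 and 0.07, and CCT7, the subunit that passed, had none in its window. A match describes these letters and does not show that a factor binds there.

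The genes whose 4 log2 ratios lay nearest to the per-array median of the subunits (0.70 over 3 unmarked spots on array 1, and 0.25, 0.01 and -0.12 over 7 on arrays 2 to 4) were sought by Euclidean distance over the 4 arrays among 7973 genes. They were MAEL (distance 0.150), TMEM60 (0.152), DNAJC13 (0.197), OSBP (0.217) and PLA2G4B (0.219). DNAJC13 is a J-domain protein of endosomes, and its ratios were 0.57, 0.35, -0.01 and -0.01. The median was the CCT4 value on array 1 and the CCT3 value on arrays 2 to 4, while TCP1 and CCT6A ran the other way. Nearness to this median therefore does not show that a gene behaved like the subunits.

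The processing mattered for the size and sign of the small subunit ratios. With median centring the subunit ratios ran from -0.08 (CCT6A) to 0.10 (CCT7), and CCT2, CCT3, TCP1 and CCT5 changed sign. Leaving out the dye term weights arrays 3 and 4 over array 2 where array 1 was marked, and CCT6A then moved from -0.01 to 0.22. In the alternatives that kept both orientations, no subunit other than CCT7 and CCT4 passed the threshold.

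**Figure D4:**
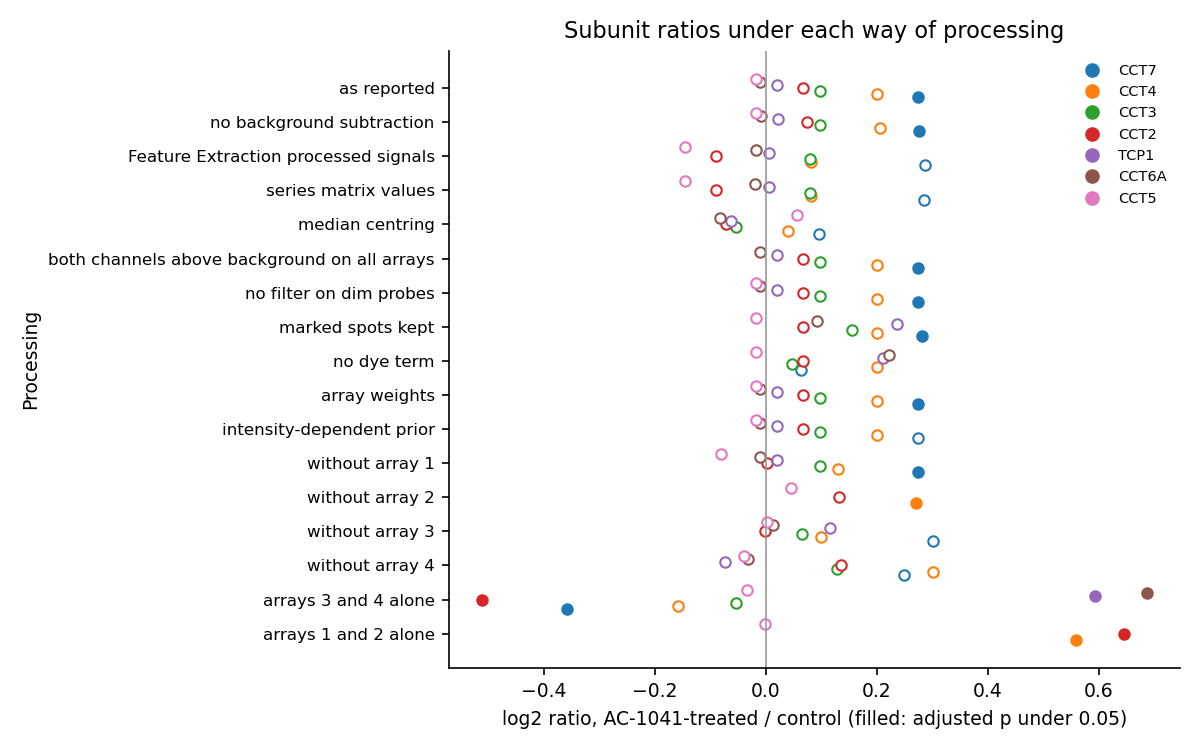
Log2 ratio of treated to control RNA (horizontal axis) of each tested subunit, 1 colour per gene, under each way of processing (vertical axis), filled where the limma adjusted p was under 0.05. The points stay between -0.15 and 0.30 while both orientations are used, and spread to -0.51 and 0.69 when arrays 3 and 4 are used alone.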

How the data were processed

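The authors scanned 4 two-colour arrays with Feature Extraction 9.5.1.1, per the file headers, and deposited each spot's intensity and local background in Cy5 and Cy3. The deposited files further hold processed intensities and a log10 ratio between the dyes. The authors' series table holds log10 ratios that matched those of the arrays, turned to treated over control, for 99.9% to 100% of values within 0.001.

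From the deposited intensities, background was corrected with normexp (offset 50), control spots were removed and loess (span 0.3) was run within each array. Ratios were taken as log2 of treated over control, the dyes per the labels. Marked spots were left out. Tested probes were well above background in 1 channel or both on 2 or more arrays, with at least 3 unmarked spots. Treatment and dye were terms of a limma model (version 3.58.1, R 4.3.3), and the step was tested on simulated data. Of 14297 gene probes 12002 were named through RefSeq GRCh38.p14 and the others kept the files' name. Of several probes of a gene the brightest was used.

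Named were all subunits, every prefoldin, phosducin-like and other chaperonin gene tested, the genes past the threshold in the other lists (at most 4, by adjusted p) and the 5 nearest patterns. Members and lists were chosen with earlier results of these data known. Alternatives changed background, signal source, normalisation, filters, marked spots, threshold, dye term, weights, prior and arrays. The number of arrays limits the precision. Some marker results are not reported here.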

Additional observations from a re-analysis of the deposited data

How the results depend on the processing

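CCT7 was the 1 subunit called, and 0 were called with Feature Extraction's processed signals, the series values, median centring, an adjusted p under 0.01, no dye term or an intensity-dependent prior. Leaving out 1 array gave 0 to 1 (0 without array 3 and without array 4, and without array 2, where CCT7 could not be tested, CCT4). Arrays 3 and 4 alone gave 4 (2 higher and 2 lower), where 6173 of 8853 probes were called. Arrays 1 and 2 alone gave 2 (both higher, median of the subunits 0.56), where 2697 of 8018 probes were called. These last settings were chosen after seeing the data. Some log2 ratios turned sign. CCT2 was -0.0899 with processed signals, -0.0896 with the series values and -0.51 on arrays 3 and 4 alone. With median centring TCP1 was -0.0632, CCT2 -0.0708, CCT3 -0.0541, CCT5 0.0572, PFDN5 -0.10, HSPE1 -0.0268, MKKS 0.0730 and BBS10 0.10. CCT6A was 0.0922 with marked spots kept, 0.22 without the dye term and 0.69 on arrays 3 and 4 alone, where CCT3 was -0.0538, CCT4 -0.16 and CCT7 -0.36. PFDN2 was -0.0121 without the dye term. With 1 array left out, the values ran from -0.0735 to 0.116 for TCP1, from -0.00061 to 0.135 for CCT2, from -0.0806 to 0.0451 for CCT5, from -0.0324 to 0.0133 for CCT6A, from -0.0765 to 0.138 for PFDN4 and from -0.0787 to 0.0282 for BBS10.

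The partner lists had 20 genes called of 52, where 37.3% of all probes were called, and 13 with processed signals, 12 with the series values, 13 at an adjusted p under 0.01 and 2 without the dye term. Leaving out 1 array gave 8 (without array 4) to 26 (without array 1). HSPH1 and BAG3 kept their call in all 15 alternatives with both orientations. Over all probes, 2155 were higher and 1151 lower. Median centring left 596 lower (79.9% of calls higher, against 65.2%), the filter on both channels 1342 higher, an adjusted p under 0.01 1354 and 468, and no dye term 52 and 4. Leaving out 1 array gave 992 to 2604 higher and 283 to 1476 lower, the fewest without array 4. The causes were not tested. Each ratio sets treated against control RNA of the same array, so the fit is paired within arrays and no further block was fitted. Low signal over background limits CCT8 on all arrays, and CCT5 in the control channel of array 2.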
